A study of Mus musculus with 6 samples.

Results

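The troponin genes encode the calcium switch of striated muscle, and 8 of them were followed in Pax7-expressing limb cells of mouse embryos and fetuses. The rule that picks the members uses gene symbols and no measured value: Tnnt1, Tnnt2 and Tnnt3 (troponin T), Tnni1, Tnni2 and Tnni3 (troponin I), and Tnnc1 and Tnnc2 (troponin C). All 8 were measured, by 12 of the 34909 probe sets that name 1 gene, among 18182 genes in all. A probe set is a group of short DNA probes on the array that reports 1 transcript or a few related ones. Each gene was represented by its probe set with the highest mean over the 6 arrays.

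The cells carried the transgene Tg:Pax7-nGFP, a nuclear green fluorescent protein under the control of Pax7, on a mixed C57BL/6:DBA2 background, and no group lacked it. GFP-positive cells were sorted from trypsin-digested limbs at E12.5 and E17.5 (days of embryonic development), and each age has 3 arrays of separate biological replicates, lettered A, B and C, according to the labels. The labels do not say whether a replicate pooled several embryos. The comparison addresses how Pax7-expressing limb cells differ between embryonic and fetal muscle formation.

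Values are log2 signals per probe set after GCRMA, a background correction and normalization method for Affymetrix arrays. Differences subtract the E12.5 mean from the E17.5 mean, so that 1 unit is a doubling. Means are ± SD with n = 3 arrays per age. A gene was called higher or lower when the p of limma, adjusted by Benjamini-Hochberg over all 18182 genes, was under 0.05. Signals under about 4 lie in the range where GCRMA leaves little specific signal. Array medians lay between 3.38 and 3.47. Most myogenic markers were well above background at both ages: Pax7 was at 11.46 ± 0.28 and 12.37 ± 0.15, Myf5 at 12.17 and 13.07, Myod1 at 10.83 and 10.99 and Myog at 11.20 and 13.06. Of 9 measured markers 4 rose and 1 fell, the progenitor gene Pax3 (7.94 to 5.38), and Myf6, at 2.63 and 5.05, was in the background range at E12.5. Over 8758 genes the SD of the difference between E17.5 A and E17.5 B was 0.152, against 0.412 to 0.551 for the other pairs within an age, so these arrays may not be independent samples. The main calls and list counts that this changes are also given with these 2 arrays averaged and counted as 1 sample, the averaged fit.

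In the sarcomere, troponin T ties the troponin complex to tropomyosin, troponin I holds back the interaction of actin and myosin, and troponin C binds calcium and relieves that inhibition. Separate genes serve slow skeletal fibres (Tnnt1, Tnni1), fast skeletal fibres (Tnnt3, Tnni2, Tnnc2) and the heart (Tnnt2, Tnni3), while Tnnc1 serves slow fibres and the heart. Embryonic skeletal muscle is known to express cardiac troponin T for a time before the skeletal forms replace it.

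Of the 8 genes, 3 rose between E12.5 and E17.5 (Tnnt2, Tnni2 and Tnnt3), 2 fell (Tnnc1 and Tnni3) and 3 were not called (Tnnt1, Tnni1 and Tnnc2). Over all genes 16.9% were called, 8.21% higher and 8.73% lower. The median difference of the 8 troponins was 1.25, against 0 over all 18182 genes. The signals of the 2 ages did not overlap in 7 of the 8 genes, against 31.4% of all genes. These shares over all genes include 7777 genes with a mean under 4, where calls are hard to reach, against 1 of the troponins. When only the 8758 genes with a mean of at least 6 were fitted, 1412 were called higher and 1497 lower. Of the troponins in that fit 3 were called higher (Tnnt2, Tnni2 and Tnni1) and 2 lower (Tnnc1 and Tnnt1), while Tnnc2 was not called. Tnnt3 and Tnni3, with lower means, were not in it, so these are not the same calls as in the main fit. By form in the main fit, the fast Tnnt3 and Tnni2 rose, and the fast Tnnc2 and the slow Tnnt1 and Tnni1 were not called. The cardiac Tnnt2 rose, the cardiac Tnni3 fell, and the shared Tnnc1 fell. Because these are bulk samples, fewer cells of a type and less RNA per cell cannot be told apart.

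**Figure D1:**
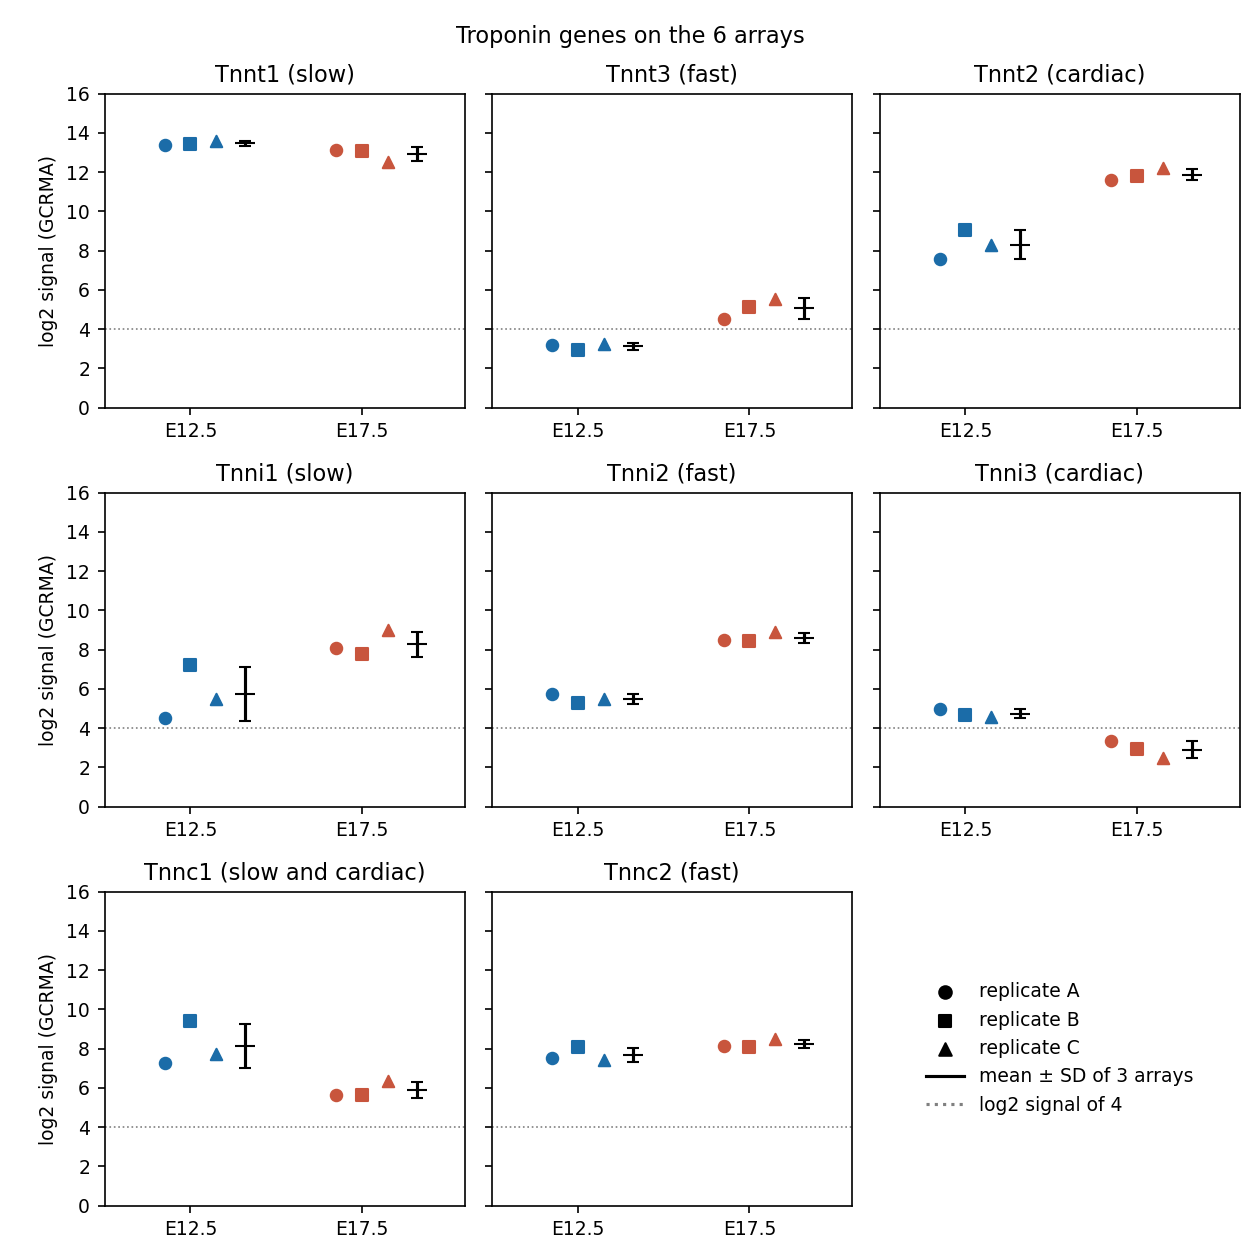
Log2 signal of each troponin gene (vertical axis, main probe set) on the 3 arrays of E12.5 (blue) and of E17.5 (red), with marker shapes for replicates A, B and C, bars for the mean ± SD and a dotted line at a log2 signal of 4. Tnnt2 went from a mean of 8.30 to 11.87 and Tnni2 from 5.49 to 8.61, Tnnt3 and Tnni3 had 1 age below the dotted line, and Tnnt1 stayed above 12 on every array.

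The start regions of 3 genes are shown, chosen after their values were seen, because Tnnt2 had the largest rise, Tnni1 lies beside it on chromosome 1 and Tnnc1 had the largest fall. RefSeq promoter sequences (build GRCm38.p6) were at hand for 6 of the 8 genes in 8 records, and not for Tnni2 and Tnnt3. Each sequence below is the 250 bases before the annotated start site, 5′ to 3′ on the gene's own strand. The regions are chr1:135836084-135836333 (plus strand) for Tnnt2, chr1:135799171-135799420 (plus strand) for Tnni1 and chr14:31208062-31208311 (plus strand) for Tnnc1. Tnnt2 and Tnni1 have a further annotated start that is not shown. Capitals mark matches to the E-box CANNTG, the sequence read by basic helix-loop-helix factors such as MyoD and myogenin, and to the MCAT element CATTCC, read by TEAD factors and searched on both strands.
Tnnt2: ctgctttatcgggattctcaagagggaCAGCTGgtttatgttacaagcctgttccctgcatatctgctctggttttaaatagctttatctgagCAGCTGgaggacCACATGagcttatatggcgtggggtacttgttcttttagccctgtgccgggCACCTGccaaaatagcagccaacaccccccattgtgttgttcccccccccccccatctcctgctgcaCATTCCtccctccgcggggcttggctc
Tnni1: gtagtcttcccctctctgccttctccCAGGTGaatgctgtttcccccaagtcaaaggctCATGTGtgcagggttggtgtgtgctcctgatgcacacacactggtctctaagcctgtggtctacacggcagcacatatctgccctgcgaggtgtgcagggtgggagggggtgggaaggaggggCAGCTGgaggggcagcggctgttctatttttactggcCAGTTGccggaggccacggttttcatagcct
Tnnc1: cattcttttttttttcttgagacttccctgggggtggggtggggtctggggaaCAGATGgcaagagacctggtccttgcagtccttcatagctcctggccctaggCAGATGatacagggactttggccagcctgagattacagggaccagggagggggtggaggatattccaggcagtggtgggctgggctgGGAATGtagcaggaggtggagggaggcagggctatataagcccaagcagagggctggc
The Tnnt2 region held 4 E-box matches, of which the nearest to the start site (CACCTG) began 94 bases before it, and 1 MCAT match (CATTCC) that began 27 bases before it. The Tnni1 region held 4 E-box matches and no MCAT match. Before the further starts not shown, there were fewer: Tnnt2 had 1 E-box match and no MCAT match, and Tnni1 had 2 E-box matches and no MCAT match. Among 32851 promoter records cut the same way, 66.2% held at least 1 E-box match and 3.84% held 4 or more. The Tnnc1 region held 2 E-box matches, both CAGATG, and 1 MCAT match on the other strand (GGAATG) that began 58 bases before the start, against 12.6% of all records with an MCAT match. The regions of Tnnt1 (1 E-box match), Tnni3 (1) and Tnnc2 (2) had no MCAT match. No troponin record held a full match to the MEF2 pattern YTAWWWWTAR or the CArG pattern CCWWWWWWGG, which 2.92% and 1.47% of all records did. In these patterns Y is C or T, R is A or G and W is A or T. Near matches were not searched for, so MEF2-like or CArG-like sequences may be present. Matches on both strands were counted and none overlapped another. A match describes the letters and not a bound site.

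Among the troponin T genes, which anchor the complex, the cardiac gene changed most. Tnnt2 stood at 7.56, 9.04 and 8.29 in E12.5 replicates A, B and C and at 11.59, 11.82 and 12.19 in the E17.5 replicates. All E17.5 arrays lay above all E12.5 arrays, with replicate B the highest of the younger age. Tnnt2 rose by 3.57 (SE 0.37, limma adjusted p = 0.00116), which is 11.9-fold, and by 3.65 with E17.5 A and B averaged (adjusted p = 0.00505). The rise was seen in 2 of its 3 probe sets. The next brightest, whose ID marks it as able to match other transcripts, went from 8.09 ± 0.62 to 11.69 ± 0.21 (difference 3.59, adjusted p = 0.0012 over all probe sets). Another was near background at 2.02 ± 0.01 and 2.59 ± 0.63 and was not called (adjusted p = 0.323). Both bright probe sets carry ID endings for several transcripts, so a fit without such probe sets kept only the dim one (0.57, adjusted p = 0.273).

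Tnnt3, the fast skeletal troponin T gene, was at 3.20, 2.94 and 3.23 at E12.5 and at 4.51, 5.12 and 5.54 at E17.5. The younger arrays all lay in the background range and the older ones just above it. The difference was 1.93 (SE 0.27, limma adjusted p = 0.00444). With every value under 4 raised to 4 it was 1.06 and no longer called (adjusted p = 0.072), so the size of the rise depends on the background range.

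Tnnt1, the slow skeletal troponin T gene, was high at both ages, at 13.38, 13.42 and 13.59 at E12.5 and 13.14, 13.09 and 12.51 at E17.5. Its arrays did not overlap between the ages, and E17.5 replicate C was the lowest. The difference of -0.55 (SE 0.18, 95% interval -0.98 to -0.12) did not pass the test (limma adjusted p = 0.0903). It was called when genes with a mean under 4 were left out (adjusted p = 0.0411). Without E17.5 replicate C the difference was -0.35.

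Among the troponin I genes, the inhibitory subunits, the fast gene gave the clearest rise. Tnni2 was at 5.76, 5.26 and 5.46 at E12.5 and at 8.49, 8.45 and 8.90 at E17.5. The arrays of an age lay close together and the ages were far apart. Tnni2 rose by 3.12 (SE 0.23, limma adjusted p = 0.000321), which is 8.69-fold, and by 3.19 in the averaged fit (adjusted p = 0.00266). Its second probe set rose by 2.60 (limma adjusted p = 0.000661 over all probe sets), but its ID marks it as able to match other transcripts. The remaining probe set stayed in the background range, between 2.30 and 2.39 on the 6 arrays.

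Tnni1, the slow skeletal troponin I gene, was at 4.52, 7.21 and 5.49 at E12.5 and at 8.07, 7.77 and 8.99 at E17.5. The ages did not overlap, but E12.5 replicate B stood 2.21 above the mean of A and C. The mean difference of 2.54 (SE 0.69) did not pass the test (limma adjusted p = 0.0508). Without E12.5 replicate B it was 3.27 and called (adjusted p = 0.00976). It was also called when genes with a mean under 4 were left out (adjusted p = 0.0215), and not in the averaged fit (adjusted p = 0.0993).

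Tnni3, the cardiac troponin I gene, was at 4.97, 4.69 and 4.56 at E12.5 and at 3.35, 2.92 and 2.47 at E17.5. It was low throughout, and all E17.5 arrays were in the background range. Tnni3 fell by 1.83 (SE 0.24, limma adjusted p = 0.00337). With values under 4 raised to 4 the difference was -0.74 (adjusted p = 0.0162).

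Troponin C, the calcium sensor, is encoded by a slow and cardiac gene and a fast gene. Tnnc1 was at 7.28, 9.40 and 7.71 at E12.5 and at 5.64, 5.64 and 6.37 at E17.5. The ages did not overlap, and replicate B was again the highest of the younger arrays. Tnnc1 fell by 2.25 (SE 0.56, limma adjusted p = 0.0373), but several alternatives ended the call. Averaging the near-identical pair ended it (-2.12, adjusted p = 0.111), as did fits without E12.5 replicate C (-2.46, adjusted p = 0.069), or without E17.5 replicate A, B or C (adjusted p = 0.11, 0.117 and 0.054). Without E12.5 replicate B the fall was smaller and still called (-1.61, adjusted p = 0.0311). In the fit over all probe sets it was not called (adjusted p = 0.0559).

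Tnnc2, the fast skeletal gene, was at 7.54, 8.10 and 7.40 at E12.5 and at 8.15, 8.08 and 8.49 at E17.5. Here the ages overlapped, since E12.5 replicate B (8.10) lay above E17.5 replicate B (8.08). The difference of 0.56 (SE 0.23, 95% interval 0.01 to 1.11) did not pass the test (limma adjusted p = 0.171).

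**Figure D2:**
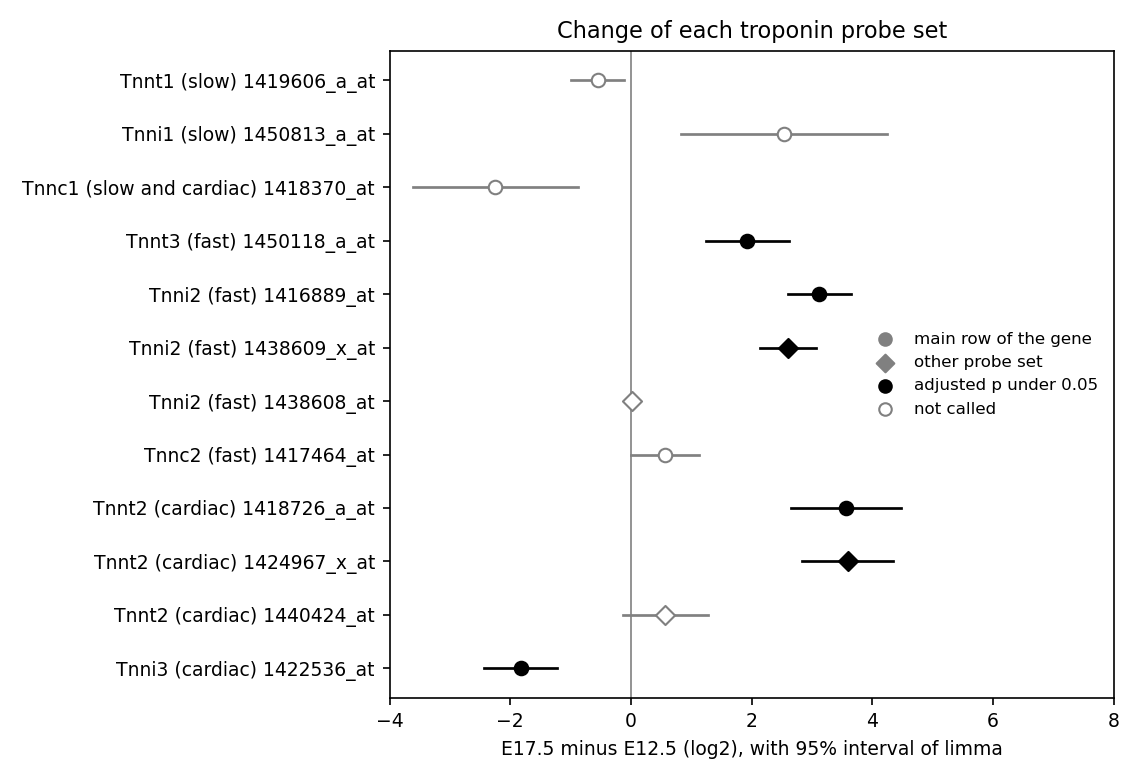
Difference between E17.5 and E12.5 (horizontal axis, log2) with its 95% limma interval for each of the 12 troponin probe sets, grouped as slow, fast and cardiac; circles are main probe sets, diamonds other probe sets, and filled marks passed an adjusted p of 0.05 over all probe sets. In this fit 5 probe sets were higher, of Tnnt2, Tnni2 and Tnnt3, and 1, of Tnni3, was lower.

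Over the probe sets, 5 of 12 were called higher and 1 lower, where 11.3% of all 34909 probe sets were called in either direction.

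Paralogues of a subunit were compared by how they changed and not by level, since levels of different probe sets cannot be set against each other. The 7 comparisons used the log2 ratio of 2 genes on each array with a two-sided exact permutation test. With 3 arrays against 3 that test cannot give a p under 0.1, so none could pass the threshold, and 6 of the 7 gave this smallest value (0.117 after adjustment over the 7). Relative to the slow Tnnt1, the cardiac Tnnt2 shifted by 4.12 (SE 0.56) and the fast Tnnt3 by 2.48 (SE 0.49). The cardiac Tnnt2 shifted by 1.64 (SE 0.52) relative to the fast Tnnt3, and by 0.65 with the mean of all probe sets of a gene. In troponin C the fast Tnnc2 shifted by 2.81 (SE 0.47) relative to the slow and cardiac Tnnc1. In troponin I the cardiac Tnni3 shifted by -4.95 (SE 0.39) relative to the fast Tnni2 and by -4.36 (SE 1.04) relative to the slow Tnni1. Where Tnnt3 or Tnni3 takes part these sizes rest on signals in the background range, and with values under 4 raised to 4 they were 1.61 for Tnnt3 over Tnnt1, 2.51 for Tnnt2 over Tnnt3, -3.86 for Tnni3 over Tnni2 and -3.28 for Tnni3 over Tnni1. The fast and slow troponin I genes were the exception. Their ratio overlapped between the ages and shifted by 0.58 (SE 0.95, exact permutation p = 0.8), and by -0.27 without E12.5 replicate B.

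**Figure D3:**
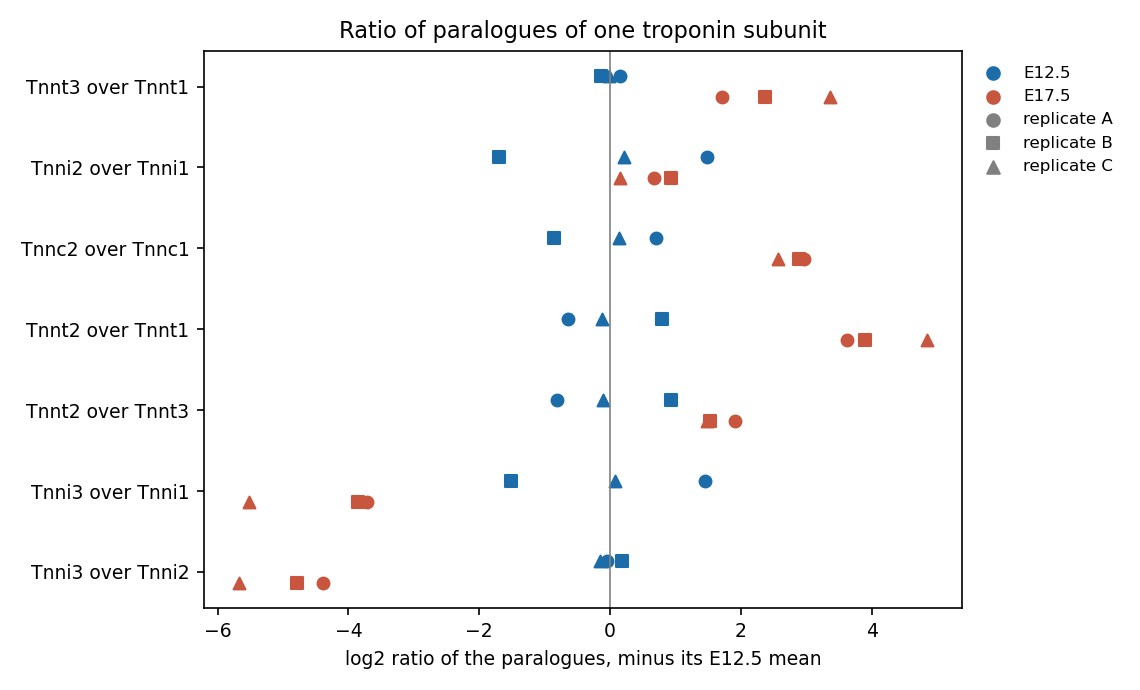
Log2 ratio of 2 paralogues on each array, minus its mean at E12.5 (horizontal axis), for the 7 pairs (rows), with E12.5 in blue, E17.5 in red and a marker shape per replicate. The ages separate in every row but Tnni2 over Tnni1, and Tnni3 over Tnni2 has the lowest mean shift (-4.95).

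The troponin I and T genes are arranged in pairs on mouse chromosomes 1 and 7, and 2 of the 3 pairs join genes of different forms. In RefSeq's gene order on GRCm38.p6, the slow Tnni1 and the cardiac Tnnt2 lie on chromosome 1 with 1 protein-coding gene, Lad1, between them. Both troponins had higher means at E17.5, Tnnt2 with a call, while Lad1 was in the background range at 2.24 and 2.23. On chromosome 7 the slow Tnnt1 and the cardiac Tnni3 are direct neighbours, and both had lower means at E17.5, Tnni3 with a call. The fast Tnni2 and Tnnt3, also on chromosome 7, both rose, and Lsp1 between them fell from 9.10 to 7.88 (difference -1.22, limma adjusted p = 0.00535). The flanking genes Phlda3 (1.12, adjusted p = 0.0561), Pkp1 (0.60, adjusted p = 0.146), Ppp1r12c (0.39, adjusted p = 0.66), Syt8 (0.02, adjusted p = 0.829) and Mrpl23 (0.24, adjusted p = 0.294) were not called. The flanking gene Dnaaf3 was not measured here. Within each of the 3 pairs the differences had the same sign, though those of Tnni1 and Tnnt1 were not called. How often neighbouring genes share a sign was not tested.

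Among the partners of troponin on the thin filament, calls went in both directions. Of 14 genes (actins, tropomyosins, nebulin and its relatives, tropomodulins and leiomodins) 2 rose, 3 fell and 9 were not called, beside the 16.9% called over all genes, with a median difference of -0.13. In the averaged fit 2 rose and 1 fell, and without 1 array 1 to 4 rose and 1 to 4 fell. Tmod1, which caps the pointed end of the thin filament, rose from 6.13 to 8.29 (2.16, limma adjusted p = 0.0126). Actc1, the cardiac alpha-actin gene that embryonic skeletal muscle also uses, rose from 12.44 to 14.02 (1.58, adjusted p = 0.0098). Of the fallen genes Tmod4 (-0.99), Lmod3 (-0.97) and Acta2 (-0.49), the first 2 were under 4 on all arrays. Tpm1, Tpm2, Tpm3 and Tpm4, the tropomyosin genes, differed by -0.34, -0.42, -0.30 and 0.09 and were not called. Acta1, the skeletal alpha-actin gene, differed by 1.76 and was not called (adjusted p = 0.117), with E12.5 replicate B (9.12) above A and C (6.74 and 7.30) as for Tnni1.

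Other genes of the fibre forms are given by their counts. Of 11 fast fibre genes none rose and 3 fell, among them Myoz1, a Z-disc protein (-1.58, limma adjusted p = 0.0461), and Actn3, the fast alpha-actinin (-1.34, adjusted p = 0.0296). These 3 falls were all lost in the averaged fit, and 0 to 3 fell without 1 array. The fast myosin light chain genes Myl1 (-0.06) and Mylpf (0.32) were not called. Of 8 slow fibre genes 1 fell, the slow myosin gene Myh7, from 5.13 to 2.80 (-2.33, adjusted p = 0.000591), and 5 were under 4 on all arrays. Among 8 genes of developing muscle 4 rose and none fell, with a median difference of 1.17. The averaged fit also gave 4 and 0. The risen genes were the perinatal myosin gene Myh8 (2.55, adjusted p = 0.000581), the acetylcholine receptor gene Chrna1 (2.53, adjusted p = 0.00108), the myosin binding protein gene Mybpc1 (2.45, adjusted p = 0.00028) and Actc1.

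**Figure D4:**
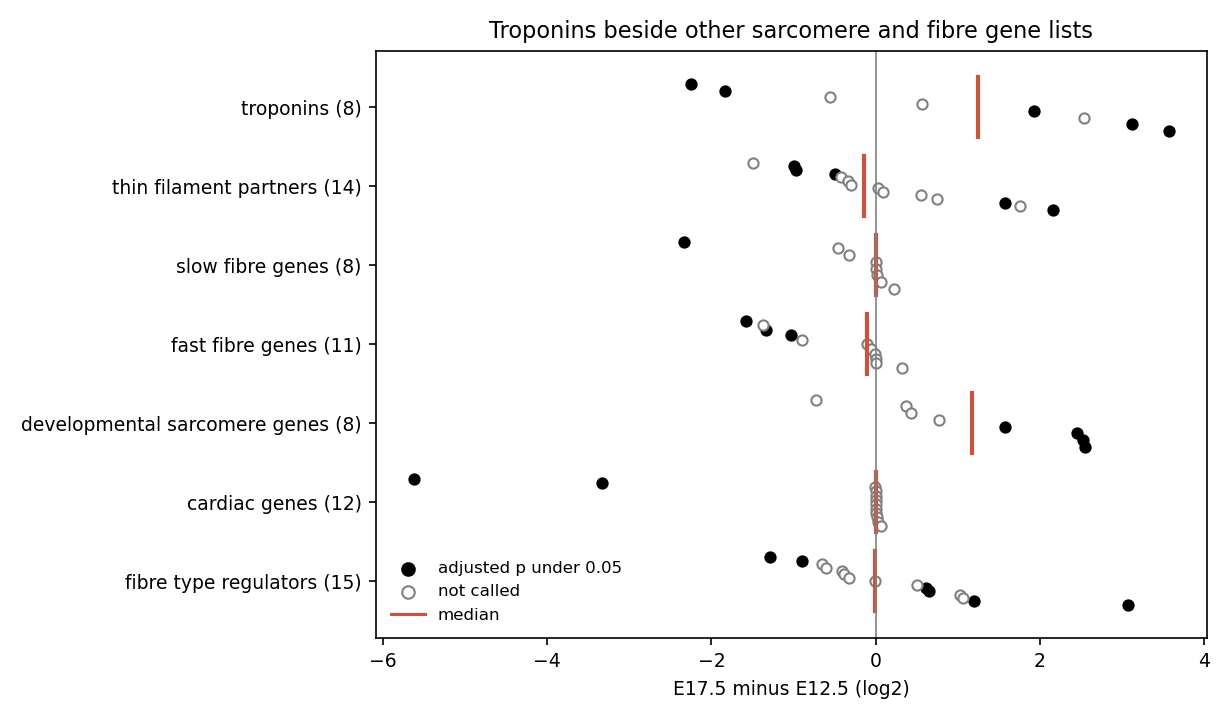
Difference between E17.5 and E12.5 (horizontal axis, log2) of each gene in the troponin family and in 6 other lists (rows, number of genes measured in brackets); filled points passed an adjusted p of 0.05 over all genes and the red line is the median of the row. The medians of the troponins (1.25) and of the developmental genes (1.17) lie above those of the other lists, which are between -0.13 and 0.01.

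The list of other cardiac genes, which leaves out the risen Actc1, mostly gave no specific signal. Of its 12 genes 2 fell and none rose, where 8.21% of all genes rose and 8.73% fell, and 10 were under 4 on all arrays, among them Nkx2-5, Gata4, Tbx20, Nppa and Myl7. Myh6, the alpha cardiac myosin gene, fell from 6.52 to 3.19 (-3.33, limma adjusted p = 0.000869). Hand2, a heart factor that limb bud mesenchyme also expresses, fell from 8.77 to 3.15 (-5.62, adjusted p = 0.000723). The summed signal of the 6 cardiomyocyte markers, on the linear scale, was 331 to 921 at E12.5 and 36.4 to 38.4 at E17.5, and that range at E12.5 is mostly Hand2. Tnni3, the other cardiac troponin, fell together with Myh6 and Hand2, and the part of other cells in its fall was not tested.

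Markers of other cell types differed between the arrays of an age and between the ages. The summed linear signal of 10 fibroblast markers was 30300 in E12.5 replicate B against 11800 and 13500 in A and C, and 24200 to 31600 at E17.5. Most of this sum came from Col1a2 and Col3a1, which were not called, while the median difference of the 10 markers was -1.02. The summed signal of 7 cartilage markers was 6200 in replicate B against 3880 and 3490, and 306 to 999 at E17.5. At E12.5 it came mostly from Col9a1 (-4.02). Neither sum measures an amount of cells. Of the fibroblast markers 1 rose and 4 fell (0 and 1 in the averaged fit), and of the cartilage markers none rose and 2 fell. Replicate B also had the highest E12.5 sums of endothelial (468 against 224 and 242), macrophage (216 against 94.3 and 86.2) and erythroid markers (31400 against 21000 and 8380). E17.5 replicate C had the lowest sums of its age for fibroblast (24200) and cartilage markers (306), and the highest E17.5 value of every troponin but Tnnt1 and Tnni3, for which it was the lowest. Between the ages the erythroid sum went to 52.7 to 79.2, led by the embryonic globin gene Hbb-y (-10.41), with 3 of 6 markers fallen and 1 in the averaged fit. The endothelial sum went to 1330 to 1530 led by Tek (4.88), the 1 of 8 markers that rose, while Pecam1 and Cdh5 were under 4 in the mean at both ages. Of 10 smooth muscle and pericyte markers 4 rose and 2 fell (3 and 1 in the averaged fit), among them Tagln (5.22) and Rgs5 (3.89) up and Pdgfrb (-3.84) down, with Myh11 and Cnn1 under 4 on all arrays. Replicate B was the highest E12.5 array for Tnnt2, Tnni1, Tnnc1 and Tnnc2, and the lowest for Tnni2 and Tnnt3. The part of these cells in the troponin values was not tested. Without E12.5 replicate B the differences stayed called for Tnnt2 (3.94), Tnni2 (3.0, limma adjusted p = 0.00125), Tnnt3 (1.84), Tnni3 (-1.85) and Tnnc1 (-1.61). The difference of Tnni1 (3.27) became called, and those of Tnnt1 (-0.57) and Tnnc2 (0.77) were still not called.

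Of 15 measured regulators of fibre type and muscle transcription 4 rose (3 in the averaged fit), 2 fell and 9 were not called, and the median was -0.01. Nfix, which drives the fetal muscle program, rose by 3.07 (limma adjusted p = 0.000832) and Mef2a, a partner of the MyoD family, by 1.20 (adjusted p = 0.00104). Eya1 fell by 1.29 (adjusted p = 0.00766) and its partner Six4 fell by 0.89 (adjusted p = 0.0067). Sox6, a repressor of slow fibre genes, differed by 1.06 and was not called (adjusted p = 0.21).

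The genes whose profile over the 6 arrays was most like that of a troponin were found by the root mean square distance between mean-centred log2 values, among genes with a mean of at least 6. This describes 6 arrays, of which 2 may not be independent. For Tnnt2 they were Dok7, an activator of the muscle synapse kinase MuSK (distance 0.246, difference 3.57), Ablim3 (0.268) and the lamin gene Lmna (0.277). Tnni2 was most like Abca5 (0.119), Atp10a (0.13) and Sapcd1 (0.13). For Tnni1 they were Olfml2b (0.409), Kdelr3 (0.41) and Acta1 (0.414), and for Tnnc1 the limb mesenchyme homeobox gene Prrx2 (0.268), Inka1 (0.273) and Epha7 (0.335). Tnnt1 was nearest to Eef1akmt1 (0.055), Glmn (0.072) and Ddx20 (0.075), and Tnnc2 to Rnf215 (0.048), Gabarapl1 (0.087) and Calu (0.105). Within the family, with no filter on the mean, the closest of the pairs computed were Tnnt2 and Tnni2 (0.62), Tnni2 and Tnnt3 (0.638), Tnnt1 and Tnni3 (0.672) and Tnnt2 and Tnni1 (0.682).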

How the data were processed

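The 6 Affymetrix arrays have 1 colour each, 3 per age. Per the labels' protocols, RNA was amplified from its 3′ end, so signal depends on probe position and RNA integrity, which were not assessed. The authors deposited log2 values, for which the submitters' processing notes name GCRMA. Its version is not stated there. That the scale is log2 was taken from the range of the values, 0.96 to 15.94. Of 44994 probe sets 34909 had 1 symbol, 931 with several symbols took no part, and 9154 are unnamed here. Symbols were updated to RefSeq (GRCm38.p6) by entrez ID for 34705. No filter or further normalization was applied. The fit used limma 3.58.1 in R 4.3.3 (lmFit, eBayes with an intensity trend) on all 18182 genes, with a second fit on all named probe sets. The gene fit was also run on simulated data with independent arrays, which cannot show how the likeness of E17.5 A and B affects its calls. Exact permutation tests used scipy 1.17.1.

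The members and gene lists were chosen with earlier results of these data known. All 8 troponins are named. From each list the text names up to 2 risen and 2 fallen genes with the largest differences, 4 myogenic markers, and the 3 genes most like a member with a mean of at least 6 and a range of at least 1. Tropomyosins, Acta1, Acta2, Mybpc1, Actc1, Myl1, Mylpf, Sox6, Pax3, Myf6, other cell type markers, heart markers under 4 and neighbours of the troponin genes are named beyond that rule, after their values were seen. Of the lists, 2 erythroid and 2 Schwann markers were not analysed here. Lists of 8 endothelial markers (1 rose), 8 macrophage markers (2 rose, 1 in the averaged fit), 10 smooth muscle and pericyte markers (4 rose, 2 fell), 6 measured erythroid markers (3 fell), 5 measured Schwann and neural crest markers (2 fell) and 9 measured myogenic markers (4 rose, 1 fell) were also counted. Nothing says that replicates came from separate litters, and the number of arrays limits the precision.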

Additional observations from a re-analysis of the deposited data

How the results depend on the processing

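Tnni2 and Tnni3 kept their call under every alternative that gave a value, with differences of 1.91 to 3.25 and -2.04 to -0.74. Filters on mean signal called Tnnt1 (-0.55, at means of at least 4 or 6) and Tnni1 (2.54). Array weights called Tnnt1 (-0.46), Tnni1 (2.47) and Tnnc2 (0.69). These weights were 4.974, 3.241 and 0.14 for E17.5 A, B and C, and 0.386, 0.239 and 4.805 for E12.5 A, B and C. The weighted fit thus rests mostly on E12.5 C and on E17.5 A and B, which may not be independent. Tnnt2 was at 0.57 without probe sets marked for several transcripts, and Tnnt3 at 1.06 with the floor at 4. Tnnt1, Tnnt3 and Tnni1 have no other probe set, so that choice gave them no value. Tnnc1 lost its call with no intensity trend (-2.25), the floor (-2.25), a further quantile normalization (-2.20), the replicate block (-2.25) and the averaged arrays (-2.12). Without 1 array each, Tnni1 ranged from 1.93 to 3.27 and Tnnc1 from -2.67 to -1.61.

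Troponins called higher numbered 3, but 1 without the marked probe sets, 2 with the floor, 4 with means of at least 4 or without E12.5 replicate B, and 5 with array weights. Those called lower numbered 2, but 1 with no trend, the floor, quantile normalization, the replicate block or the averaged arrays, 1 to 2 without 1 array, and 3 with array weights. Of all genes 1493 were higher and 1587 lower, against 3205 and 5218 with array weights, 1014 lower with the replicate block, 825 lower with averaged arrays, and 969 to 1553 higher and 770 to 1776 lower without 1 array. Over the thin filament, slow, fast, developmental and cardiac lists 5 distinct genes rose and 9 fell, against 12 and 18 with array weights. There were 5 and 3 falls among genes with means of at least 4 and 6, 3 with the floor, 4 with averaged arrays, and 4 to 9 without 1 array.

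The shift of Tnnt3 over Tnnt1 was 1.61 with the floor. That of Tnnt2 over Tnnt1 was 3.13 with the mean of probe sets, that of Tnnt2 over Tnnt3 was 0.65 with that mean and 2.51 with the floor, and that of Tnni3 over Tnni2 was -3.74 and -3.86. The shift of Tnni2 over Tnni1 reversed to -0.63 with the mean of probe sets, and ranged from -0.27 to 1.33 without 1 array. The deviations of same-letter arrays from their age means correlated at -0.38, 0.255 and -0.07 for A, B and C over 8758 genes. This cannot decide whether the letters pair the arrays, because E17.5 A and B are near-identical. The labels do not say what arrays of the same letter share. The next brightest probe set was added after seeing the data (3.59 for Tnnt2, 2.60 for Tnni2). Signal over background limits Tnnt3 and Tnni3, which have 1 age under 4.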
